A study of Homo sapiens with 4 samples.

Results

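The genes described here are 4 long noncoding RNAs, NEAT1, MALAT1, TUG1 and NORAD, and 3 genes for paraspeckle proteins of the DBHS family, SFPQ, NONO and PSPC1. They were chosen by symbol, and all 7 matched exactly 1 of the 28814 rows of the count table and passed the filter on low counts. The cells were 697, an established human B-cell precursor acute lymphoblastic leukaemia line. Cultures received 1 µM MZ1 for 24 h or an equal volume of the solvent DMSO, with 2 libraries per group and no other treatment named. MZ1 joins a BET bromodomain ligand to one that recruits the ubiquitin ligase VHL, and so sends BET proteins to the proteasome. All samples come from a single line. Whether the libraries of a group were grown apart is not said in the labels, so each p-value below refers to differences among 4 libraries that may be technical only.

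NEAT1 RNA is the scaffold of paraspeckles, nuclear bodies that hold proteins and some RNAs back from the rest of the nucleus. Its gene makes a short polyadenylated form and a long form, and only the long form builds the body. SFPQ and NONO bind the long form and are needed for it to assemble, whereas their relative PSPC1 joins the body without being essential. MALAT1, the next gene along the chromosome, makes an RNA that collects in nuclear speckles, which store splicing factors. TUG1 RNA is found in nucleus and cytoplasm. NORAD works mainly in the cytoplasm, where it binds Pumilio proteins, which are RNA-binding repressors.

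The 4 libraries held 14246367 to 16488005 counted reads. No spike-in is named, so levels are relative within a library, and in a culture fewer cells with a transcript and less of it per cell cannot be told apart. MYC, a transcript known to answer BET loss, went from 508 ± 18.9 to 5.82 ± 0.37 CPM (reads of a gene scaled to library size; mean ± SD, n = 2 per group throughout). Of the BET genes themselves, whose loss from MZ1 is at the protein level, BRD2 went from 349.6 to 319 CPM (a difference that turns upward with upper-quartile scaling), and BRD3 from 93.9 to 267 CPM, and HEXIM1, a further response gene, from 44.6 to 121 CPM. All 10 B-lineage markers looked up had reads, and their summed level (marker sums are CPM of the plain library totals) was 3968 to 4006 CPM with DMSO and 1028 to 1080 CPM with MZ1. Of 5 T cell markers 1 had a row, at 0.485 to 0.687 CPM with DMSO and 3.72 to 3.99 CPM with MZ1, and CD3D, CD3E, CD3G and CD2 had none. Of 5 myeloid markers 4 had a row, with sums of 5.46 to 6.498 CPM with DMSO and 16.7 to 20.6 CPM with MZ1. These 4 did not move together. CSF1R fell from a mean of 5.14 to 0.93 CPM, whereas LYZ rose from 0.18 to 2.65, CD14 from 0.51 to 7.15 and MPO from 0 to 8.46 CPM. A sum over 3 of 5 erythroid and stromal markers was 10.9 to 12.8 CPM with DMSO and 13.97 to 14.2 CPM with MZ1. Mitochondrially encoded genes made up 5.48% and 5.82% of the reads with DMSO and 8.98% and 9.26% with MZ1. The part of these shifts in the results below was not tested.

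All 4 long noncoding RNAs and SFPQ were higher with MZ1, and NONO and PSPC1 were lower. The largest change was that of NEAT1, 9.92-fold, followed by NORAD at 3.62-fold and SFPQ at 2.39-fold. A change is called here when the adjusted p of edgeR's quasi-likelihood test (Benjamini-Hochberg over all 16862 tested genes) is below 0.05. In that test 42.8% of all tested genes were called higher and 41.3% lower, 84.2% in all, so calls for all 7 genes are close to what any gene gave. Among 2448 tested long noncoding RNA genes 54.8% were called higher and 19.9% lower, and their median log2 fold change was 1.01, against 0.05 for all tested genes. Among tested protein-coding genes 38.5% were called higher and 48.8% lower. For each of the 7 genes the MZ1 values lay wholly above or below the DMSO values, as they did for 91.3% of all tested genes. Together the 4 long noncoding RNAs took 0.0793% and 0.0870% of the reads with DMSO and 0.306% and 0.319% with MZ1.

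**Figure D1:**
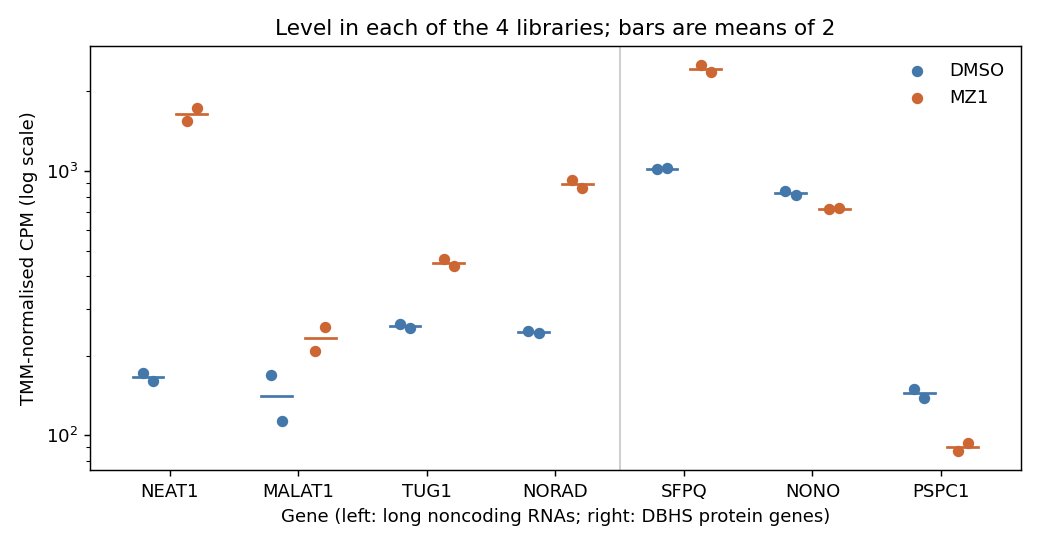
Level of each gene in TMM-normalised CPM (log axis) in the 2 DMSO and 2 MZ1 libraries, with points for libraries and short bars for group means. NEAT1 has the widest gap between groups, MALAT1 has the widest gap between its DMSO libraries (113 and 168 CPM), and NONO has the smallest gap between groups.

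NEAT1 (ENSG00000245532, chromosome 11, 65422774 to 65445540, plus strand, GRCh38, a lincRNA gene) was at 171 and 160.0 CPM in the DMSO libraries and at 1547 and 1738 CPM in the MZ1 libraries. Both MZ1 libraries lay far above both DMSO libraries, with raw counts of 21872 and 24048 against 2805 and 2712. The log2 fold change was 3.31 ± 0.05 (SE; edgeR adjusted p = 4.72e-26). It was exceeded by 8.98% of all tested genes and by 381 of the 2448 tested long noncoding RNA genes. NEAT1 ranked 9th among those genes by CPM with DMSO and 1st with MZ1. CPM takes no account of gene length. By CPM per kilobase of annotated exonic sequence NEAT1 ranked 106th with DMSO and 6th with MZ1. It supplied 1.56% and 1.47% of the reads of the tested long noncoding RNA genes with DMSO and 8.45% and 9.52% with MZ1.

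The deposited count gives both NEAT1 forms as a single value. The gene's annotated exonic length is 22767 bases, nearly all of it the long transcript (22743 bases). The short form ends after a poly(A) signal that lies 3706 bases into that transcript. The stretch is shown because these letters separate the forms. Its capitals mark the signal AATAAA (65426503 to 65426508) and each TGTA, the letters bound by NUDT21, a subunit of the cleavage factor that forms this short end.

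NEAT1 short form, chr11:65426428-65426537, plus strand: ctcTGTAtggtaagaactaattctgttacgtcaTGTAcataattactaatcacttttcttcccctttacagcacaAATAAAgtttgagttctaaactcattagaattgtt

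Of 206 windows of 110 bases along the long transcript, on the transcribed strand, 3.88% held AATAAA, 46.1% held TGTA and 1.94% held both. RNA levels of genes for proteins known to steer the choice between the forms did not move together. These genes were chosen after their values were seen. NUDT21 fell 3.39-fold, from 261 ± 11.4 to 76.8 ± 7.04 CPM. Its partner CPSF6 rose 1.18-fold, from 274 ± 8.05 to 324 ± 2.59 CPM. HNRNPK, which is known to hinder NUDT21 and CPSF6 and so favour the long form, fell 2.09-fold, from 1050 ± 15.5 to 503 ± 2.90 CPM. Which NEAT1 form rose was not measured.

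MALAT1 (ENSG00000251562, chromosome 11, 65497688 to 65506516, plus strand, a lincRNA gene) was at 168 and 113 CPM with DMSO and at 209 and 256 CPM with MZ1. The groups did not overlap, but the DMSO libraries differed 1.49-fold from each other, a larger gap than for 99.7% of 5916 well-expressed genes (mean log2 CPM 5 or more). The MZ1 libraries differed 1.22-fold, more than 97.6% of those genes. The log2 fold change was 0.73 ± 0.10 (edgeR adjusted p = 4.76e-07), or 1.65-fold, and it ranged from 0.43 without DMSO replicate 2 to 0.99 without DMSO replicate 1. By DESeq2 the adjusted p was 0.04996, and by edgeR with no count filter it was 0.0469. The rise of MALAT1 is thus the least precise of the 7 values.

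MALAT1 and the long NEAT1 form carry no poly(A) tail. RNase P cuts a small tRNA-like RNA off each, and the end that is left folds into a triple helix of U-rich and A-rich stretches that protects it. The last 110 bases before the cut are printed because the TruSeq RNA kit in general use selects RNA by its poly(A) tail, and these ends hold A-rich stretches of their own. Capitals mark each base that lies in a stretch of 7 bases found in both ends. Overlapping stretches are joined, so a run of capitals in one end need not occur whole in the other.

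NEAT1 long form, chr11:65445431-65445540, plus strand: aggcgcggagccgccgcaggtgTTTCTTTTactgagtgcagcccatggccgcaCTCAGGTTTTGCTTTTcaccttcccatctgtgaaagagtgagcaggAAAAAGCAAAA
MALAT1, chr11:65506007-65506116, plus strand: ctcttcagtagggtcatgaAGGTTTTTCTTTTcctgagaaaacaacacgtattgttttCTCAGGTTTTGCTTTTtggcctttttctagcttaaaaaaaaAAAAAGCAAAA

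Each end has 3 runs of capitals, and the longest run found whole in both has 16 bases. Of the last 20 bases 55% are A in NEAT1 and 85% in MALAT1. How well either end is captured by these libraries was not tested.

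TUG1 (ENSG00000253352, chromosome 22, 30969245 to 30979395, plus strand, annotated as a lncRNA with a bidirectional promoter) was at 263 and 255 CPM with DMSO and at 465 and 435 CPM with MZ1. Both MZ1 libraries were higher than both DMSO libraries by far more than the gap within either group. The log2 fold change was 0.80 ± 0.04 (edgeR adjusted p = 6.66e-15), or 1.74-fold. Other annotated genes share 14.4% of its exonic length, 4 of them short RNA entries on its own strand and 2 of them lincRNAs on the opposite strand, none with a row of its own, so reads of these could be counted as TUG1.

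NORAD (ENSG00000260032, chromosome 20, 36045622 to 36050960, minus strand, a lincRNA gene of a single exon) was at 248 and 244 CPM with DMSO and at 922 and 859 CPM with MZ1. The libraries within each group lay close together, and the groups were far apart. The log2 fold change was 1.86 ± 0.04 (edgeR adjusted p = 1.18e-22), or 3.62-fold. NORAD was the 2nd long noncoding RNA by CPM with MZ1, after NEAT1, and the 5th with DMSO. By CPM per kilobase of annotated exonic sequence it was the 2nd with MZ1 and the 9th with DMSO.

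NORAD is known for its many Pumilio sites, with the letters TGTANATA. Its transcript of 5339 bases, read on the sense strand, held 15, including 3 pairs whose starts lie 9 bases apart. Of 4358 GENCODE transcripts within 10% of its length, 42.9% held any such site, the median was 0, and 3 held 15 or more, NORAD among them. The long NEAT1 form held 6, a TUG1 transcript of 7469 bases held 2 and a MALAT1 transcript of 8708 bases held 0. The 3 pairs are shown with the sites in capitals, as on the transcript.

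NORAD bases 1437 to 1463, chr20:36049498-36049524, minus strand: atctgTGTATATAgTGTACATAaagga
NORAD bases 2634 to 2660, chr20:36048301-36048327, minus strand: tatacTGTATATAtTGTATATAtaacg
NORAD bases 3270 to 3296, chr20:36047665-36047691, minus strand: tgctgTGTATATAgTGTATATAagcgg

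Of 4 listed genes for NORAD-binding proteins 3 were called lower, in every processing alternative run (median log2 fold change of the list −0.39). Over all tested protein-coding genes 48.8% were called lower. PUM2, a Pumilio protein gene, fell 1.31-fold, from 173 ± 12.7 to 131 ± 1.89 CPM. RBMX, a gene for a nuclear RNA-binding protein, fell 3.63-fold, from 494 ± 7.08 to 136 ± 0.15 CPM. KHDRBS1 (Sam68), a gene for a signalling-linked RNA-binding protein, fell 1.31-fold, from 492 ± 1.44 to 377 ± 3.73 CPM.

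Promoters from RefSeq (GRCh38.p14, 250 bases before to 50 after the start) were found for 5 of the 7 genes: MALAT1 with 2 starts, TUG1, NORAD, NONO and PSPC1. Letters were searched on both strands, the 4 motifs were chosen by hand, and no matches to different motifs overlapped. NORAD and TUG1 each held 1 CACGTG, the E-box that MYC and several other factors bind. The share with this motif over 35116 promoters was 7.26%. The other promoters of these genes, MALAT1, NONO and PSPC1, held none. MALAT1's downstream start held TATAAA, present in 11.5% of promoters. CCAAT, present in 34.6%, occurred 2 times for TUG1 and 3 times for NONO, and the NRF1 motif, present in 1.24%, occurred 1 time for PSPC1. Capitals below mark these matches, on either strand.

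NORAD promoter, chr20:36050911-36051210, minus strand: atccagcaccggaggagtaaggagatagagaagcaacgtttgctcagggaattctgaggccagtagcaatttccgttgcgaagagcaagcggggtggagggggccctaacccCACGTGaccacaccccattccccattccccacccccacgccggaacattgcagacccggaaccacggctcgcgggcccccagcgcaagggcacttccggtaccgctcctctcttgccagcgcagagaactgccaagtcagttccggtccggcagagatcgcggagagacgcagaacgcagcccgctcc
TUG1 promoter, chr22:30969015-30969314, plus strand: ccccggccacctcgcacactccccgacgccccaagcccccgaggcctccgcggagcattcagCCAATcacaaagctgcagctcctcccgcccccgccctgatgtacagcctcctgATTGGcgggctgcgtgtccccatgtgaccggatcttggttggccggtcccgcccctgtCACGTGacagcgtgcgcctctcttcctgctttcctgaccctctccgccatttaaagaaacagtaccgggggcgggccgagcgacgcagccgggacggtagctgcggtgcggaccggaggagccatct
MALAT1 promoter, chr11:65498795-65499094, plus strand: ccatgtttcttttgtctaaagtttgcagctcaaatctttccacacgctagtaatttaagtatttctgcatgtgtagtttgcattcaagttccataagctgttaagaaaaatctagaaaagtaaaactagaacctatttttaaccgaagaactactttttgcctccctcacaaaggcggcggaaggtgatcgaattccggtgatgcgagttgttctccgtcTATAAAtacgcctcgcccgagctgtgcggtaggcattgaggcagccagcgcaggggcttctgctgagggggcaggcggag

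These letters describe the promoters only, and no binding was measured here.

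The DBHS genes did not move together. SFPQ (ENSG00000116560, chromosome 1, 35176378 to 35193148, minus strand), a splicing factor and core paraspeckle protein, was at 1014 and 1025 CPM with DMSO and at 2515 and 2364 CPM with MZ1. The groups lay well apart, and the log2 fold change was 1.26 ± 0.04 (edgeR adjusted p = 1.48e-20). NONO (ENSG00000147140, chromosome X, 71283192 to 71301168, plus strand), the usual partner of SFPQ, was at 843 and 812 CPM with DMSO and at 717 and 722 CPM with MZ1. Its log2 fold change was −0.20 ± 0.04 (edgeR adjusted p = 2.44e-05), but it was 0.071 and not called with upper-quartile scaling (adjusted p = 0.0837) and −0.030 and not called with a stricter count filter (adjusted p = 0.45). The direction of NONO therefore hangs on how the libraries are scaled. PSPC1 (ENSG00000121390, chromosome 13, 19674752 to 19783019, minus strand) was at 149 and 139 CPM with DMSO and at 87.1 and 93.7 CPM with MZ1. It fell by 0.67 ± 0.05 on the log2 scale (edgeR adjusted p = 2.17e-11), or 1.59-fold, and was lower in every alternative run.

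**Figure D2:**
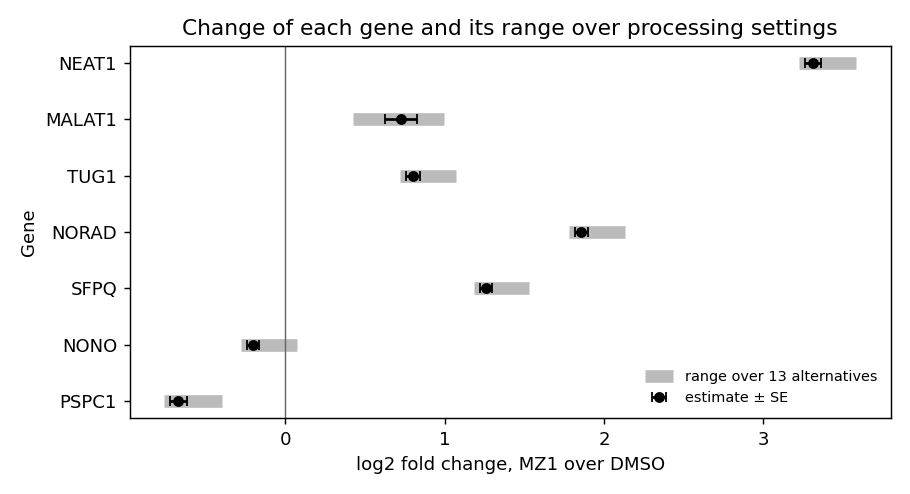
Estimated log2 fold change of each gene (points with SE bars) and the range over 13 alternative settings (grey bars), with a line at no change. The range of NONO alone crosses 0, and the bar of MALAT1 is the widest.

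A ratio of counts within a library does not depend on scaling between libraries. The ratio of SFPQ to NONO reads was 1.20 and 1.26 with DMSO and 3.51 and 3.27 with MZ1, a 2.75-fold difference. The ratio of PSPC1 to NONO reads was 0.177 and 0.171 with DMSO and 0.121 and 0.130 with MZ1, a 1.39-fold difference. The ratio of NEAT1 to MALAT1 reads was 1.02 and 1.41 with DMSO and 7.40 and 6.79 with MZ1, a 5.91-fold difference. The groups were apart for each of these 3 ratios. The exact two-sided permutation test gave p = 0.333 for each, which is the smallest value that 2 against 2 libraries can give, so no p below 0.05 could be reached and Benjamini-Hochberg adjustment over the 3 leaves it at 0.333.

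**Figure D3:**
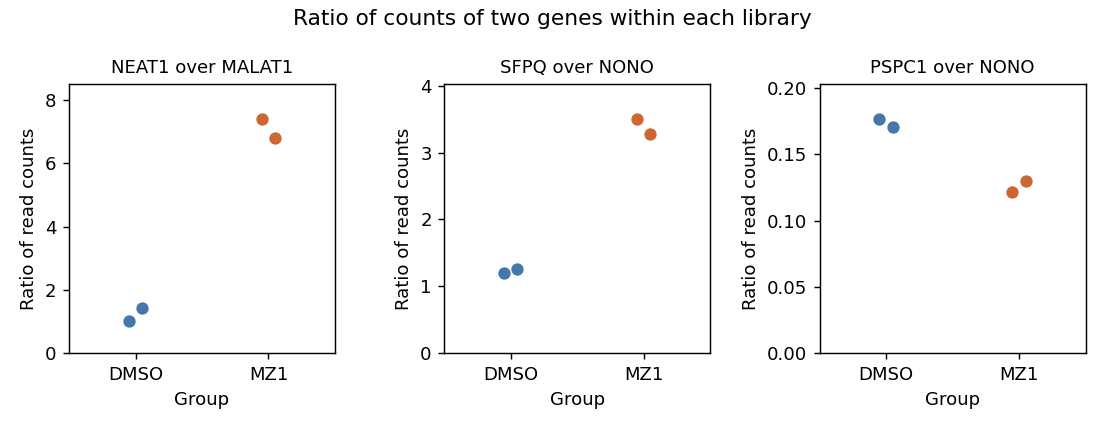
Ratio of raw read counts of 2 genes in each library, for NEAT1 over MALAT1, SFPQ over NONO and PSPC1 over NONO, with axes from 0. The MZ1 points lie above the DMSO points in the first 2 panels and below them in the last.

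Levels of different genes were compared per kilobase of annotated exonic sequence, as CPM per kb. With DMSO the order was NONO (156), SFPQ (137), NORAD (46.0), PSPC1 (29.9), TUG1 (25.5), MALAT1 (15.9) and NEAT1 (7.28). With MZ1 it was SFPQ (329), NORAD (167), NONO (136), NEAT1 (72.1), TUG1 (44.4), MALAT1 (26.3) and PSPC1 (18.8). In neither group did the libraries of neighbours in this order overlap. NEAT1 passed TUG1, MALAT1 and PSPC1. Its place rests on the length used: over the 3711 bases of the short form its level would be 44.6 CPM per kb with DMSO and 443 with MZ1.

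RNA levels of genes for other proteins found in paraspeckles changed in both directions, mostly down. Of 31 listed genes 29 were tested, 10 of them called higher and 19 lower, with a median log2 fold change of −0.43 (all tested genes 0.05). All tested protein-coding genes gave 38.5% higher and 48.8% lower. Over all alternatives 8 to 10 were called higher and 15 to 19 lower. Among those that rose, the cold-inducible RNA-binding protein gene CIRBP went from 137 ± 5.85 to 526 ± 6.96 CPM (log2 fold change 1.94 ± 0.04) and the splicing regulator gene HNRNPH1 from 976 ± 7.46 to 2196 ± 42.5 CPM (1.17 ± 0.03). AKAP8L, a nuclear anchoring protein gene, rose from 54.5 ± 3.24 to 244 ± 7.95 CPM (2.16 ± 0.05), although other genes cover 31.8% of its exons. Among those that fell, the splicing repressor gene HNRNPA1 went from 2518 ± 27.3 to 635 ± 15.9 CPM (−1.99 ± 0.04), a value made uncertain by its many processed copies. SMARCA4, the SWI/SNF chromatin remodelling ATPase gene, went from 679 ± 13.3 to 275 ± 1.21 CPM (−1.31 ± 0.04), and RBMX fell as given above. MATR3 was called higher, but 42.5% of its exonic length also lies in another gene entry of that name, so its count is uncertain.

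Genes for proteins of the nuclear speckles, where MALAT1 collects, also split. Of 19 tested genes 10 were called higher and 7 lower (median 0.10), or 13 and 5 with upper-quartile scaling. Tested protein-coding genes as a whole gave 38.5% higher and 48.8% lower. CLK1, a kinase that phosphorylates SR proteins, rose 9.72-fold, from 83.3 ± 4.66 to 810 ± 36.8 CPM. The SR protein gene SRSF5 rose 2.22-fold and SON, a scaffold of the speckle, 1.90-fold. SRSF7 fell 2.55-fold and SRSF3 1.76-fold. SRSF1 fell 3.12-fold, and other genes cover 60.7% of its exons.

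Genes for cutting and binding the MALAT1 end were mostly lower. Of 13 listed genes 11 were tested, 1 called higher and 8 lower, with a median log2 fold change of −1.04, or 2 higher and 7 lower with upper-quartile scaling. The shares over all tested protein-coding genes were 38.5% higher and 48.8% lower. The RNase P subunit gene POP1 fell 6.58-fold, from 55.5 ± 5.05 to 8.43 ± 0.28 CPM, and POP7 fell 4.38-fold, from 58.2 ± 2.86 to 13.3 ± 0.66 CPM. METTL16, an RNA methyltransferase that binds the MALAT1 triple helix, fell 3.39-fold, from 79.9 ± 2.05 to 23.6 ± 1.47 CPM. RPP38, another subunit gene, rose 1.77-fold, from 9.79 ± 0.33 to 17.3 ± 3.43 CPM. Other genes, NMT2 most, cover 26.9% of its exons.

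Among 16 other listed long noncoding RNAs 12 were tested, 2 called higher and 5 lower, with a median of −0.33. Over all 2448 tested long noncoding RNA genes 54.8% were called higher and 19.9% lower, with a median of 1.01. KCNQ1OT1, a nuclear RNA of an imprinted locus, rose 4.76-fold, from 16.2 ± 0.57 to 76.9 ± 0.45 CPM, and NUTM2A-AS1 1.46-fold. MIR17HG, host of a microRNA cluster, fell 12.9-fold, from 21.8 ± 0.53 to 1.68 ± 0.53 CPM. OIP5-AS1, a cytoplasmic RNA, fell 2.90-fold, from 293 ± 34.5 to 101 ± 4.33 CPM, and FTX fell 2.11-fold, although 44.3% of its exonic length lies in other genes, JPX above all. Whether NEAT1, NORAD, TUG1 and MALAT1 differ from these RNAs as a group was not tested.

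**Figure D4:**
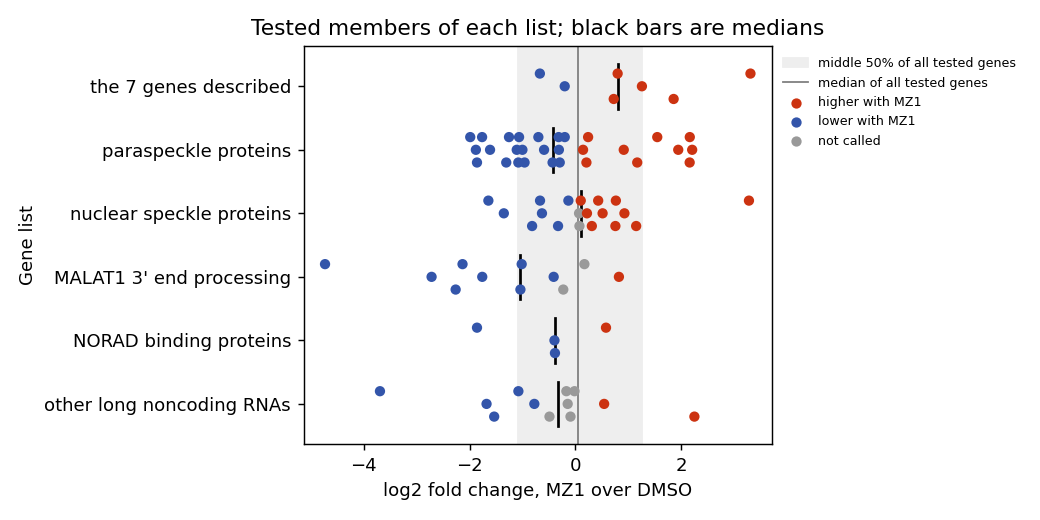
Log2 fold change of each tested gene in 6 lists, coloured by the edgeR call, with black bars at list medians and a grey band over the middle 50% of all tested genes. Paraspeckle and MALAT1-end lists have their medians left of 0, at −0.43 and −1.04. So do the NORAD-binding and other long noncoding RNA lists, at −0.39 and −0.33.

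The genes around NEAT1 and MALAT1 did not share a direction. FRMD8, which ends 9249 bases before NEAT1, rose from 60.6 ± 1.83 to 104 ± 3.87 CPM (log2 fold change 0.78 ± 0.06). Of 24 other tested genes that start within 300 kb of the NEAT1 start, 6 were called higher and 12 lower, with a median of −0.09. All tested genes gave 42.8% higher and 41.3% lower. Among the genes within 300 kb ZNRD2-DT, at 3.02 ± 0.20, came closest to NEAT1, and it was chosen after its value was seen.

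**Figure D5:**
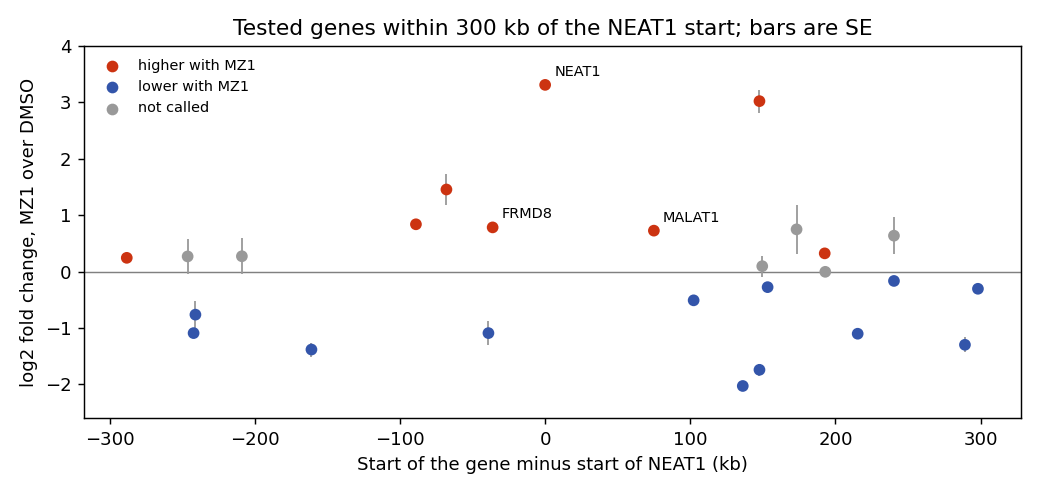
Log2 fold change (points, SE bars) of tested genes against the distance of their start from the NEAT1 start in kb, coloured by the edgeR call. NEAT1 at 3.31 stands above its neighbours FRMD8 (0.78) and MALAT1 (0.73).

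Neighbours of the other genes varied likewise. MORC2, 947 bases from TUG1 and read in the opposite direction, rose by 0.44 ± 0.06, and SMTN on the other side from 79.0 ± 7.01 to 224 ± 6.40 CPM. Beside NORAD, SCAND1 (−0.11 ± 0.06; edgeR adjusted p = 0.118) and EPB41L1 (−0.60 ± 0.39; edgeR adjusted p = 0.159) were not called. Beside SFPQ, ZMYM4 fell by 0.56 ± 0.05, and the lincRNA ENSG00000284640 was at 9.31 ± 2.06 CPM with MZ1 and had 0 reads with DMSO. With the DMSO group set to 3 counts in all, an approximate upper limit for 0 reads that covers counting error only, it was at least 103-fold higher. Beside NONO, ZMYM3 fell by 0.87 ± 0.05, and ITGB1BP2, 566 bases downstream, rose by 1.09 ± 0.20. Beside PSPC1, MPHOSPH8 rose by 0.93 ± 0.06 and ZMYM5 by 1.37 ± 0.13. PSPC1-AS2, which overlaps 0.747% of the PSPC1 exonic length on the opposite strand, rose from 0.66 to 2.47 CPM.

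The genes most like each RNA were sought among 5844 well-expressed genes. Left out were clone, LINC-named, antisense, mitochondrial, immunoglobulin, Y-linked, XIST and TSIX rows, and rows with only an Ensembl ID as name. Long noncoding RNAs with such names were therefore not compared. Likeness was measured by the Euclidean distance of log2 CPM in the 4 libraries, centred on the DMSO mean. Since all libraries fall in 2 groups, this measure mostly matches the size of the change. For NEAT1 the nearest genes were CRY2 (0.158), KLHL28 (0.168) and SKIL (0.183). For NORAD they were PCBP2 (0.0292), MOB2 (0.0301) and AMH (0.0371). For TUG1 they were FRMD8 (0.0286), NARF (0.0303) and WIPI2 (0.0350). For MALAT1 they were HADHB (0.262), VPS26A (0.272) and TRMT1L (0.275), larger distances than for the other 3.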

How the data were processed

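RNA-seq libraries of 697 cells, 2 with MZ1 and 2 with DMSO, were grouped by the titles in the labels. Total RNA was taken with TRIzol and made into libraries with an Illumina TruSeq RNA kit, per the labels' protocols. The deposited values are raw counts of reads per gene under Ensembl IDs, per the file headers. Per the submitters' processing notes, HISAT2 2.2.0 and the build hg38 were used. How reads were assigned to genes (program, annotation, strand) is not given in the sources used here, and reads from genes that overlap may therefore be shared or swapped.

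Positions, exonic lengths and transcript sequences came from GENCODE release 29 (GRCh38, the build called hg38), which held all 28814 IDs, and symbols from a table of gene names matched 28597. Promoters came from RefSeq. The filter filterByExpr of edgeR 4.0.16 (R 4.3.3) left 16862 genes, which were scaled with TMM and tested with glmQLFit and glmQLFTest with treatment as the only term. Each standard error is the unshrunk coefficient over the square root of F. CPM values use TMM library sizes, except the marker sums, which use plain library totals. Errors after ± are the SD for CPM and the SE for log2 fold changes. DESeq2 1.42.0 and limma 3.58.1 were alternatives. The fit was also run on simulated counts in which only a small part of the genes changed, unlike here. That run cannot check the scaling of these libraries, and its outcome is not reported here. Replicates differed by more than sampling noise (chi-square per degree of freedom 2.44 and 2.17). The biological coefficient of variation was 3.79%, and depth limits the precision of genes with few reads.

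The 7 genes, the lists and the tests were chosen with earlier results of these data known. Named genes were the 7 members, all members of lists of 9 or fewer, up to 3 per direction by adjusted p from longer lists, nearest tested neighbours and overlapping genes, and the 3 nearest patterns per RNA. Markers of cell types are given as sums, and the myeloid ones also by gene. A few genes that this rule names are not reported here.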

Additional observations from a re-analysis of the deposited data

How the results depend on the processing

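In each of 13 alternatives NEAT1, MALAT1, TUG1, NORAD and SFPQ were called higher and PSPC1 lower. Log2 fold changes ranged from 3.22 to 3.58 for NEAT1, 0.43 to 0.997 for MALAT1, 0.72 to 1.07 for TUG1, 1.78 to 2.13 for NORAD, 1.18 to 1.53 for SFPQ and −0.76 to −0.40 for PSPC1. Upper-quartile scaling shifted all log2 fold changes by a median of 0.27 and the stricter filter, at least 50 counts in 2 libraries, by 0.17. NONO was then 0.071 and −0.030, which left 1 of the 7 genes called lower under each of these settings. Genes for the MALAT1 end called higher numbered 2 under both, and 2 with DESeq2's size factors. The cause was not tested. With the replicate number as a block, 7107 of all tested genes were called higher and 6856 lower, in place of 7222 and 6969, and no call of the 7 genes changed (NONO −0.20, MALAT1 0.74). No label ties same-numbered libraries together, and the deviations of same-numbered libraries correlated at 0.014 across genes. Leaving out each library in turn moved NEAT1 between 3.22 and 3.40, MALAT1 between 0.43 and 0.99 and NONO between −0.27 and −0.19, in fits that assume a lone library varies like the other group.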
